A study of Mus musculus with 5 samples.

Results

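The 39 genes described here encode proteins of DNA replication and of mitosis, and were taken by their mouse mm9 symbol: 20 act in replication or its control and 19 in mitosis. Their engaged RNA polymerase was read from global run-on sequencing (GRO-seq), in which nuclei extend the transcripts already begun in the presence of Br-UTP and the labelled RNA is pulled down and sequenced. The embryonic stem cells (MESC) were of the line V6.5 at passages 12 to 14, grown with LIF on irradiated feeder cells. The embryonic fibroblasts (MEF) came from a male E13.5 embryo and were at passage 2, grown without LIF in a medium with less serum. Both are of the cross C57Bl/6(f) x 129/Sv(m), with no other genetic change or treatment in the labels. The labels name 3 MESC samples and 2 MEF samples, but the deposited reads are pooled by cell type and carry no sample name. Each value below is therefore 1 value per cell type, with no replicate check and no p-value, and its interval is an exact 95% interval that covers counting error of reads only. The reads carry no molecular identifiers and may repeat a molecule, so the intervals can be too narrow even for counting error. V6.5 is a single line, how many feeders were left among the ES cells is not given, and in bulk nuclei fewer cells in a cell cycle phase and less polymerase per cell cannot be told apart.

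As background, a cell prepares its replication origins in G1 by loading the MCM helicase with the help of Cdc6 and Cdt1, and fires them in S phase, which is entered with active cyclin E. Mitosis follows, driven by cyclin B with Cdk1 and by the Aurora and Polo kinases, and ends when the spindle checkpoint releases Cdc20. Genes of the first kind are known as targets of E2F factors, and many of the second kind are known to carry a cell cycle homology region (CHR) and CCAAT boxes, which the DREAM complex, the B-Myb complex with FoxM1 and NF-Y read. ES cells divide fast, with a short G1 phase.

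The promoters of the 3 mitosis and the 3 replication genes with the most promoter-proximal reads over both libraries are shown because they let these letters be seen beside the polymerase counts. Each runs from 250 bases before to 50 bases after the annotated start, on the minus strand of the mm9 assembly (NCBIM37), 5′ to 3′, and capitals mark the letters searched. These were CHR as TTTGAA, the CCAAT box as CCAAT, the E2F site as TTTCGCG or as TTTGGCG or as TTTCCCG or as TTTGCCG, and the TATA box as TATAAA, each on both strands, so ATTGG and TTCAAA are matches too. The windows are chr10:68815637-68815936 for Cdk1, chr11:98885454-98885753 for Top2a, chr2:172195986-172196285 for Aurka, chr2:132079001-132079300 for Pcna, chr1:20810310-20810609 for Mcm3 and chr9:36534194-36534493 for Chek1.
Cdk1: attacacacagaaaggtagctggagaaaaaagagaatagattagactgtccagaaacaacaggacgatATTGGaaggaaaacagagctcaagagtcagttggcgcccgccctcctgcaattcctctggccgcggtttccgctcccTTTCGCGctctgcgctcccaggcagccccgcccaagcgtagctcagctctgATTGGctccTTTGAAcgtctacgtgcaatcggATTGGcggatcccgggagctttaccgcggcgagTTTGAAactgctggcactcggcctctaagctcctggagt
Top2a: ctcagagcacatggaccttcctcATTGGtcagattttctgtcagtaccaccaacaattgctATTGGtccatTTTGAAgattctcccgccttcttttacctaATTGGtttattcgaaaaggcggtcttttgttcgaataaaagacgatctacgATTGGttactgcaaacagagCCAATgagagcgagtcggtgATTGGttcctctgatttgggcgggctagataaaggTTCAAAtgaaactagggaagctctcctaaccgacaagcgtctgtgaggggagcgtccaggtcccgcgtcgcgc
Aurka: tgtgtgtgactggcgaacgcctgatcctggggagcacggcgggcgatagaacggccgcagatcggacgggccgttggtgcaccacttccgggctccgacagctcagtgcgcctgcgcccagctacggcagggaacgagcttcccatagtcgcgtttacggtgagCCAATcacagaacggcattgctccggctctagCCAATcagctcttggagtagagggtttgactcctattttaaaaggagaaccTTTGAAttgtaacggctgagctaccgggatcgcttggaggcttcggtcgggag
Pcna: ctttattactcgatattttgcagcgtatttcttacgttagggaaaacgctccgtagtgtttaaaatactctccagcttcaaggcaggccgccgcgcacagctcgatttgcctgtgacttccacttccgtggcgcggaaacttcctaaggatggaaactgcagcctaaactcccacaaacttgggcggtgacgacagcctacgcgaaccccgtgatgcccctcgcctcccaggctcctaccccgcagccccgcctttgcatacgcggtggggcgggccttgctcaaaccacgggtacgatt
Mcm3: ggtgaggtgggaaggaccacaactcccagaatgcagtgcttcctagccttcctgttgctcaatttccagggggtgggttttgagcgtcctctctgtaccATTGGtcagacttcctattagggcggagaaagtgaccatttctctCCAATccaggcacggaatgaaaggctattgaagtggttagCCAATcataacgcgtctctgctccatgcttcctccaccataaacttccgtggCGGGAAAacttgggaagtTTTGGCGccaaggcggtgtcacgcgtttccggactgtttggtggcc
Chek1: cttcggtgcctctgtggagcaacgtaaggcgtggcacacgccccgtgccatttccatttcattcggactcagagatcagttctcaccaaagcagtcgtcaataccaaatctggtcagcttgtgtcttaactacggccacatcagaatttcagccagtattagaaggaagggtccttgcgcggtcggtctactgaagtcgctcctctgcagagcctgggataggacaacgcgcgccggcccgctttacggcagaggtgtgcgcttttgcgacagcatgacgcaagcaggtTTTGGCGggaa

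All 3 mitosis promoters held both the CHR letters and the CCAAT letters, and Cdk1, the kinase that drives entry into mitosis, also held an E2F site. Of the 3 replication promoters, Mcm3 held E2F and CCAAT letters, Chek1 held an E2F site, and Pcna, whose most-read annotated start lies 134 bp further downstream, held none of the letters searched in this window. The split ran through the whole set. CHR letters were in 12 of 19 mitosis promoters (63.2%) and in 1 of 19 replication promoters (5.26%), that of Mcm2, against 15.2% of the 20913 promoters of all kept gene models. E2F letters were in 10 of 19 replication promoters (52.6%) and in 2 of 19 mitosis promoters (10.5%), those of Cdk1 and Birc5, against 8.34% of all. CCAAT boxes did not part the groups in this way, with 84.2% of mitosis and 73.7% of replication promoters against 37.4% of all, and TATA letters stood in 1 promoter of each group. All 12 mitosis promoters with CHR letters also had a CCAAT box, a pair found in 6.17% of all promoters. In 2 lists of further cell cycle genes, the CHR letters were in 58.1% of 43 other mitosis promoters and the E2F letters in 39.5% of 43 other replication promoters. With the window placed at the annotated start with the most reads, the mitosis count with CHR letters was 14 of 19 and the replication count with E2F letters was again 10 of 19. These are matches of letters, and binding at them was not measured.

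The MESC reads numbered 8616592 and the MEF reads 6583644, and densities were scaled to all of these but the mitochondrial ones. In 6 bins of 1 kb, each library had at least 0.4% of its reads per bin. Together these bins took 11.57% of the MESC reads and 16.42% of the MEF reads. What they encode was not examined. Pluripotency markers summed to 45.2 RPKM (reads per kilobase of window, scaled to library size) in MESC and 0.188 in MEF over 8 genes, with Zfp42, Lin28a, Tdgf1 and Fgf4 at 0 reads in MEF. Fibroblast markers summed to 4.84 RPKM in MESC and 199.9 in MEF over 8 genes, with none at 0 in either library. Blood and macrophage markers summed to 0.0876 and 1.05 RPKM over 5 genes, endothelial markers to 0.487 and 0.268 over 5, and neural markers to 7.92 and 3.45 over 5. The part of these other cells in the ratios below was not tested.

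Over gene bodies, counted on the sense strand from 1000 bp after the start to the annotated end, 38 of the 39 genes had a usable model and at least 50 reads in 1 library. Of these, 20 were denser in MESC by 2-fold or more and none was denser in MEF by that much, where 20.5% of all 10350 measured bodies passed 2-fold toward MESC and 12.6% toward MEF. None passed 4-fold in either direction, a size that 7.88% and 5.49% of all bodies reached. Over the 38 genes the median was 2.09-fold, a log2 ratio of 1.06 against 0.30 for all bodies, and 28 of their intervals lay wholly above that median of all bodies and 1, that of Rrm1, below it. Over all genes, 33.4% of bodies lay above it and 36.1% below it by the same rule. Cdc20, Mad2l1 and Pcna met the read minimum through MESC alone. Among the 35 that met it in both libraries, 17 were at least 2-fold higher in MESC.

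**Figure D1:**
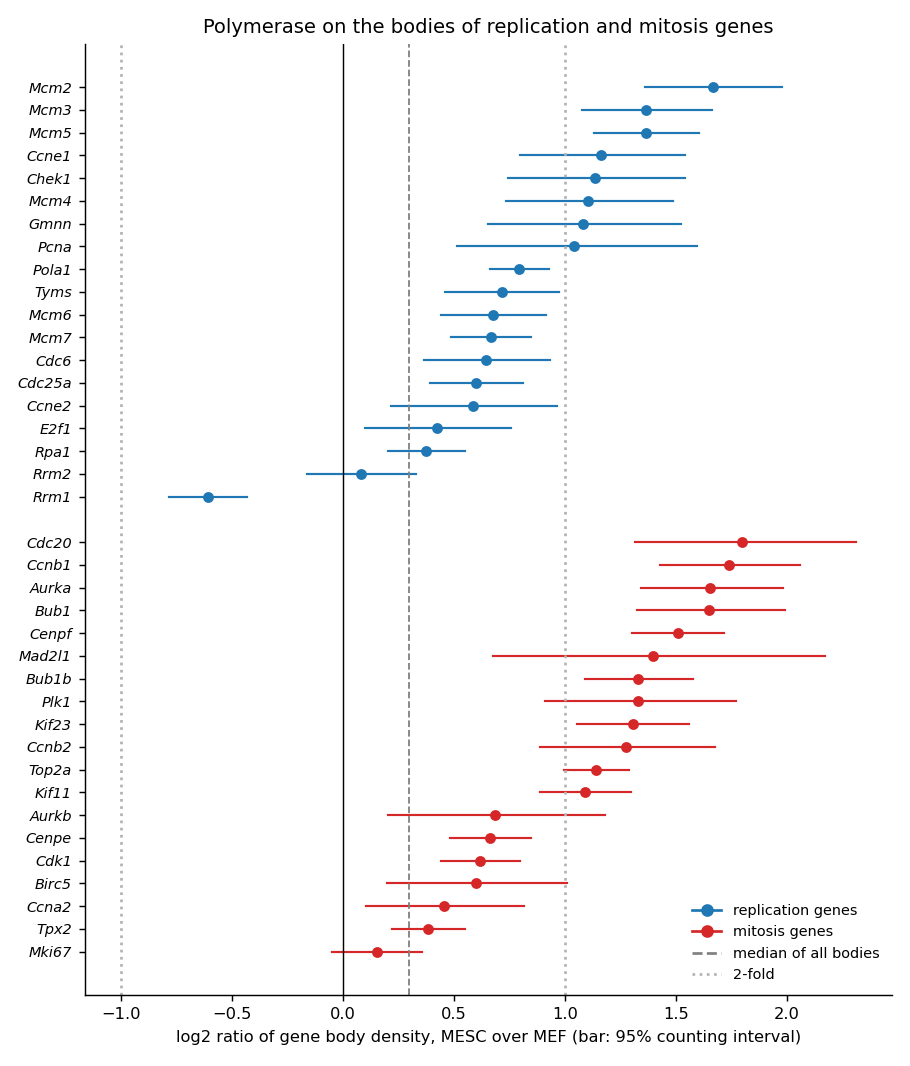
Log2 ratio of gene body density, MESC over MEF, for each of the 38 genes, with its 95% counting interval as a bar and replication and mitosis genes in separate colours. Rrm1 is the gene left of 0, the dashed line is the median of all bodies at 0.30, and 20 points lie at or beyond the 2-fold line toward MESC.

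The count rests on the scale between the 2 libraries. With TMM factors or with median ratios over gene bodies, the median of all bodies moved from a log2 ratio of 0.30 to 0.055 or 0.029, and the share of all 2-fold body calls that were higher in MESC moved from 61.9% to 49.0% or 47.9%. Under either scale 10 of 19 mitosis genes and 3 of 19 replication genes were past 2-fold, where 15.2% (TMM) and 14.8% (median ratios) of all bodies were, so the replication count is near the share of all genes. Relative to the median of all bodies, which these scales do not touch, the mitosis median was 0.98 higher and the replication median 0.42 higher on the log2 scale.

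The genes of the spindle checkpoint and of anaphase stood furthest toward MESC, all 4 past 2-fold with a median log2 ratio of 1.52. This count by role and those below rest on few genes and stand beside the 20.5% of all bodies past 2-fold toward MESC. Of these, Cdc20 and Mad2l1 met the read minimum through MESC alone, and Bub1 and Bub1b met it in both libraries. Cdc20, which activates the anaphase-promoting complex (ENSMUSG00000006398.7, chr4:118105506-118109957, minus strand), had 195 and 43 body reads in MESC and MEF, that is 6.59 and 1.90 RPKM, a ratio of 3.48-fold (2.49 to 4.96). Bub1, a checkpoint kinase (ENSMUSG00000027379.7, chr2:127626858-127657601, minus strand), had 389 and 95 reads and a ratio of 3.14-fold (2.50 to 3.97). Its partner Bub1b (ENSMUSG00000040084.8, chr2:118423947-118467327, plus strand) had 610 and 186 reads and a ratio of 2.51-fold (2.13 to 2.98). The bodies of Bub1 and Bub1b are among the less dense ones, at 1.53 and 0.486 RPKM and 1.68 and 0.668 RPKM. Mad2l1, which holds Cdc20 inactive, had the fewest reads of the 4, 72 and 21, with a ratio of 2.63-fold (1.60 to 4.50).

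Among the 7 mitotic cyclins and kinases, 4 passed 2-fold and the median log2 ratio was 1.27. Ccnb1, the main mitotic cyclin (ENSMUSG00000041431.10, chr13:101548605-101556525, minus strand), had 452 and 104 body reads, 7.62 and 2.29 RPKM, and a ratio of 3.33-fold (2.69 to 4.16), while its partner kinase Cdk1 (ENSMUSG00000019942.6, chr10:68799383-68815686, minus strand) had 777 and 388 reads, 5.92 and 3.86 RPKM, and a ratio of 1.54-fold (1.36 to 1.74). The intervals of this cyclin and its kinase do not overlap. Cdk1 was the densest mitosis body in MEF and Ccnb1 the densest in MESC. Aurka, the kinase of spindle poles (ENSMUSG00000027496.9, chr2:172181690-172196035, minus strand), had 423 and 103 reads and a ratio of 3.15-fold (2.53 to 3.94). Aurkb, the kinase of the chromosomal passenger complex, had 113 and 54 reads and a ratio of 1.60-fold (1.15 to 2.26), so the Aurora genes also differed from each other, with intervals that do not overlap. Over the introns of Aurkb alone, with only 44 and 30 reads, the log2 ratio was 0.17. Plk1, the Polo kinase, had 200 and 61 reads and a ratio of 2.51-fold (1.88 to 3.41), and the second B cyclin Ccnb2 had 227 and 72 reads and a ratio of 2.42-fold (1.85 to 3.20). Ccna2, a cyclin of S phase and early mitosis, had 186 and 104 reads and a ratio of 1.37-fold (1.07 to 1.76), which fell to a log2 ratio of -0.0015 when its introns alone were counted.

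The 8 genes of kinetochores, spindle and chromosome structure were the most mixed of the mitosis genes, with 4 past 2-fold and a median log2 ratio of 0.87. Top2a, the topoisomerase that untangles sister chromatids (ENSMUSG00000020914.10, chr11:98854257-98885503, minus strand), had 1452 and 505 body reads, 5.60 and 2.54 RPKM, and a ratio of 2.20-fold (1.99 to 2.44). Cenpf, a kinetochore protein (ENSMUSG00000026605.7, chr1:191464478-191511965, minus strand), had 919 and 248 reads and the highest ratio of these 8, 2.84-fold (2.47 to 3.28). Kif23, a motor of the midzone and cytokinesis, had 554 and 172 reads and a ratio of 2.47-fold (2.08 to 2.95), and Kif11, the motor that parts the spindle poles, had 749 and 270 reads and a ratio of 2.13-fold (1.85 to 2.45). The other 4 stayed within 2-fold. Cenpe, a kinetochore motor, had 759 and 368 reads and a ratio of 1.58-fold (1.39 to 1.80). Birc5, of the chromosomal passenger complex, had 156 and 79 reads and a ratio of 1.51-fold (1.15 to 2.01), but over its introns alone, with 52 and 38 reads, the log2 ratio was 0.069. Tpx2, the activator of Aurora A (ENSMUSG00000027469.9, chr2:152673700-152721057, plus strand), had 823 and 484 reads and a ratio of 1.30-fold (1.16 to 1.46), and thus sat well under the kinase it activates. Mki67, the Ki-67 proliferation antigen, was nearly level at 494 and 341 reads, 2.25 and 2.03 RPKM, a ratio of 1.11-fold (0.965 to 1.28) whose log2 value turned from 0.15 to -0.091 with TMM factors and -0.12 with median ratios.

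Among the replication role groups of more than 1 gene, that of origin licensing was most often past 2-fold, 5 of the 8 measured, with a median log2 ratio of 1.09. The MCM subunits form 1 hexamer, but their ratios were not equal. Mcm2 (ENSMUSG00000002870.7, chr6:88833469-88848774, minus strand) had 455 and 110 body reads and the highest ratio of all replication genes, 3.17-fold (2.57 to 3.94). Mcm3 had 430 and 128 reads and a ratio of 2.58-fold (2.11 to 3.16), and Mcm5 (ENSMUSG00000005410.4, chr8:77633427-77652338, plus strand) had 641 and 191 reads and a ratio of 2.57-fold (2.19 to 3.04). Mcm4 followed with 227 and 81 reads and a ratio of 2.15-fold (1.66 to 2.80). Mcm6 (ENSMUSG00000026355.4, chr1:130228168-130256233, minus strand) had 458 and 220 reads and a ratio of 1.60-fold (1.36 to 1.88), with an interval wholly under that of Mcm2. Mcm7 (ENSMUSG00000029730.10, chr5:138605811-138613650, minus strand), the densest body of all 39 genes at 13.48 and 8.50 RPKM, had 761 and 368 reads and a ratio of 1.59-fold (1.40 to 1.80), but most of its start reads lay at an annotated start 1405 bp downstream, inside the counted body. With promoter and body placed from that start the Mcm7 ratio was 2.85-fold (2.19 to 3.74), and counted from 3000 bp after the main start it was 2.68-fold (2.03 to 3.58), next to its fellow subunits.

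Cdc6, which loads the helicase, had 314 and 154 reads and a ratio of 1.56-fold (1.28 to 1.91). Gmnn, the inhibitor of Cdt1, had 171 and 62 reads and a ratio of 2.11-fold (1.57 to 2.88). Cdt1 itself overlaps a longer readthrough model on the same strand, Gm20388, and was left out of the counts above. Its own body held 256 and 71 reads, a ratio of 2.76-fold (2.12 to 3.65), that cannot be assigned to 1 of the 2 models.

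The S phase entry genes stayed mostly within 2-fold, with 1 of 4 past it, near the 20.5% of all bodies, and a median log2 ratio of 0.59. Ccne1 had 242 and 83 reads and a ratio of 2.24-fold (1.74 to 2.90), and the second E cyclin Ccne2 had 180 and 92 reads and a ratio of 1.50-fold (1.16 to 1.95). Cdc25a, the phosphatase that activates cyclin-dependent kinases (ENSMUSG00000032477.8, chr9:109778083-109796392, plus strand), had 555 and 281 reads and a ratio of 1.51-fold (1.31 to 1.75). E2f1, the transcription factor of S phase genes, had 217 and 124 reads and a ratio of 1.34-fold (1.07 to 1.69).

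Fork proteins and enzymes of nucleotide supply were the lowest role group, with 1 of 6 past 2-fold, near the 20.5% of all bodies, and a median log2 ratio of 0.54. Pcna, the sliding clamp, was the one past it, at 110 and 41 reads and 2.06-fold (1.42 to 3.02), and its interval reaches well under 2. Pcna met the read minimum through MESC alone. Pola1, the catalytic subunit of DNA polymerase alpha (ENSMUSG00000006678.5, chrX:90550106-90877494, minus strand), had 1519 and 672 reads over a long body, only 0.543 and 0.313 RPKM, and a ratio of 1.73-fold (1.58 to 1.90). Tyms, thymidylate synthase, had 400 and 187 reads and a ratio of 1.64-fold (1.38 to 1.96), and Rpa1, which coats single-stranded DNA (ENSMUSG00000000751.7, chr11:75111668-75161826, minus strand), had 733 and 434 reads and a ratio of 1.29-fold (1.15 to 1.46). The subunits of ribonucleotide reductase stood apart from the rest. Rrm1, the large subunit (ENSMUSG00000030978.9, chr7:109590209-109618285, plus strand), was the only one of the 38 bodies with more density in MEF, 496 and 580 reads, 2.14 and 3.26 RPKM, 1.53-fold (1.35 to 1.72) higher in MEF. Rrm2, the small subunit (ENSMUSG00000020649.5, chr12:25393106-25399011, plus strand), was among the densest bodies in both, 330 and 239 reads or 7.85 and 7.41 RPKM, at a ratio of 1.06-fold (0.893 to 1.26), whose log2 value of 0.082 turned to -0.16 with TMM factors, -0.19 with median ratios, -0.078 with the 35-base MESC reads alone and -0.014 over introns alone. Chek1, the S phase checkpoint kinase, had 209 and 73 reads and a ratio of 2.19-fold (1.67 to 2.91).

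For 10 of the 38 genes, reads of the same strand between 5000 and 500 bp before the start had over 0.25 of the body's density in at least 1 library. The share of all bodies with such reads is not given, so this count does not set the 38 genes apart from others. Per kilobase they stood to the body at 3.27 in MESC and 5.74 in MEF for Aurkb, at 1.32 in MESC and 3.85 in MEF for Ccnb2, at 1.68 in MESC and 3.14 in MEF for Chek1 and at 1.10 in MESC and 1.67 in MEF for Mcm6. For Plk1 they were at 0.336 in MESC and 1.13 in MEF and for Mcm2 at 0.251 in MESC and 0.896 in MEF. Rrm1 had 0.509 in MESC and 0.145 in MEF, so these reads were relatively fewer in the library where its body was denser. Kif11, Cdc6 and Pola1 make up the 10. Their part in the body ratios was not tested gene by gene. Without all 10 genes 9 mitosis and 6 replication genes passed 2-fold toward MESC, where 20.5% of all bodies did, with medians 1.01 and 0.42 above that of all bodies.

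Set side by side, mitosis genes had 12 of 19 bodies past 2-fold toward MESC and replication genes 8 of 19, where 20.5% of all bodies were. With TMM factors or median ratios the counts were 10 of 19 and 3 of 19, where 15.2% or 14.8% of all bodies were. On the main scale, among genes that met the read minimum in both libraries, which leaves out Cdc20, Mad2l1 and Pcna, the counts were 10 of 17 and 7 of 18. The mitosis median was a log2 ratio of 1.27 (2.42-fold, from 0.15 to 1.80) and the replication median 0.71 (1.64-fold, from -0.61 to 1.66). The difference of the medians, 0.56, ranged from 0.37 to 0.59 over the 20 alternative settings. Settings that change only the scale, the promoter window or the antisense window cannot move it, so they are no check of it. In both groups 14 of 19 intervals lay above the median of all bodies, and the ranges of the groups overlapped from 0.15 to 1.66. No test was made of this difference, since the genes are not replicates of a cell type. The levels did not order the same way: the median density was 2.31 RPKM for mitosis and 2.67 RPKM for replication genes in MESC, and 1.17 and 1.48 RPKM in MEF, against medians of 0.955 and 0.824 RPKM over all measured bodies. The 12 mitosis genes with CHR letters had a median body log2 ratio of 1.29 and the 7 without had 0.66, with ranges that overlap from 0.38 to 1.74. The 10 replication genes with E2F letters had a median of 0.94, from 0.42 to 1.36. The 9 without had 0.66, from -0.61 to 1.66, so the first range lies inside the second. That 0.66 is the value of Mcm7 at its main annotated start. Mcm7, Rrm2 and Ccne2 were counted as without from windows at their main starts, not at their most-read ones. The 2 mitosis genes with E2F letters had a lower median, 0.61, than the 17 without, 1.30. These differences were not tested.

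Near the start, in the window from 50 bp before to 300 bp after it, 28 of the 38 genes reached 20 reads in 1 library, 8 of them through MESC alone. Of these 28, 12 were denser in MESC by 2-fold or more and none in MEF, against 21.1% and 9.31% of all 4670 measured promoters. The 8 were Aurkb, Bub1b, Mki67, Cenpf and Kif23 of the mitosis genes and Mcm4, Mcm5 and Rrm1 of the replication genes. Of the 20 that reached the minimum in both libraries, 7 were at least 2-fold higher in MESC, 3 of 11 mitosis and 4 of 9 replication promoters. Over all 28, 6 of 16 mitosis and 6 of 12 replication promoters passed 2-fold, and the medians were log2 ratios of 0.83 and 0.91, against 0.31 for all promoters. The promoter medians differed by -0.084, mitosis minus replication, and that sign turned under 3 of the 20 settings. Kif23 had 36 and 7 promoter reads, a ratio of 3.94-fold (1.73 to 10.5), and Cenpf had 50 and 13, a ratio of 2.95-fold (1.58 to 5.92), but both were measured only because of their MESC reads. Of those with enough reads in both libraries, Cdc20 had 95 and 27 and 2.70-fold (1.74 to 4.30), and Ccnb1 had 118 and 34 and 2.66-fold (1.80 to 4.02). Ccnb1 read 2.05 on the log2 scale from the MESC reads of 35 bases and 0.47 from those of 36 bases. Among replication promoters Tyms had 83 and 25 reads and 2.55-fold (1.61 to 4.16), Mcm3 had 111 and 39 and 2.18-fold (1.50 to 3.23), and Gmnn had 71 and 25 and 2.18-fold (1.36 to 3.59). Top2a had 177 and 61 reads and a promoter ratio of 2.22-fold (1.65 to 3.03), nearly that of its body.

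**Figure D2:**
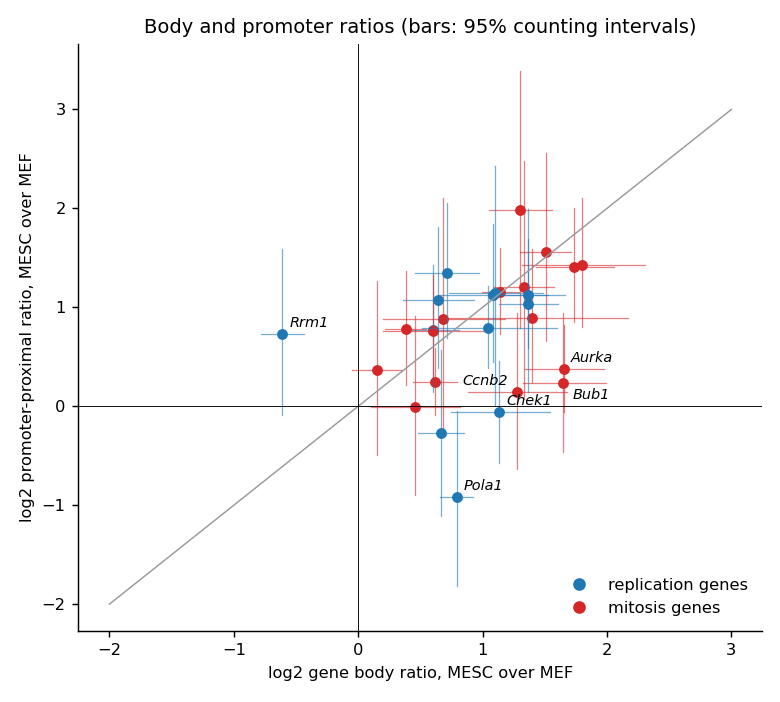
Log2 promoter-proximal ratio against log2 gene body ratio, MESC over MEF, for the 28 genes with both measured, with 95% counting intervals as bars and the diagonal of equal ratios. The body ratio exceeds the promoter ratio in 15 of the 28 genes, and Pola1 lies lowest, with a promoter ratio under 1 and a body ratio above 1.

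The sense reads of mitosis genes peaked 50 to 99 bp after the start in both libraries, at 3.07 RPM (library-scaled reads in a 50 bp bin, averaged over genes) in MESC and 1.63 in MEF. For replication genes the highest bin was 0 to 49 bp in MESC, at 1.61, and 50 to 99 bp in MEF, at 0.961. Antisense reads of mitosis genes peaked in the bin from -250 to -201 bp, at 0.958 in MESC and 0.745 in MEF. Those of replication genes peaked from -100 to -51 bp in MESC, at 0.792, and from -300 to -251 bp in MEF, at 0.408. These averages include genes with another annotated start within 2000 bp, so the antisense bins may hold reads of a neighbour. Single genes also weigh on them. In the 500 bp before the start, Plk1 had 145 and 63 antisense reads, Cdc20 163 and 85, and Chek1 182 and 46. The positions of the antisense peaks were not examined gene by gene. Of the mitosis genes, Cdk1 held 192 and 124 sense promoter reads in MESC and MEF and Top2a 177 and 61, the highest sums over both libraries at the annotated start.

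**Figure D3:**
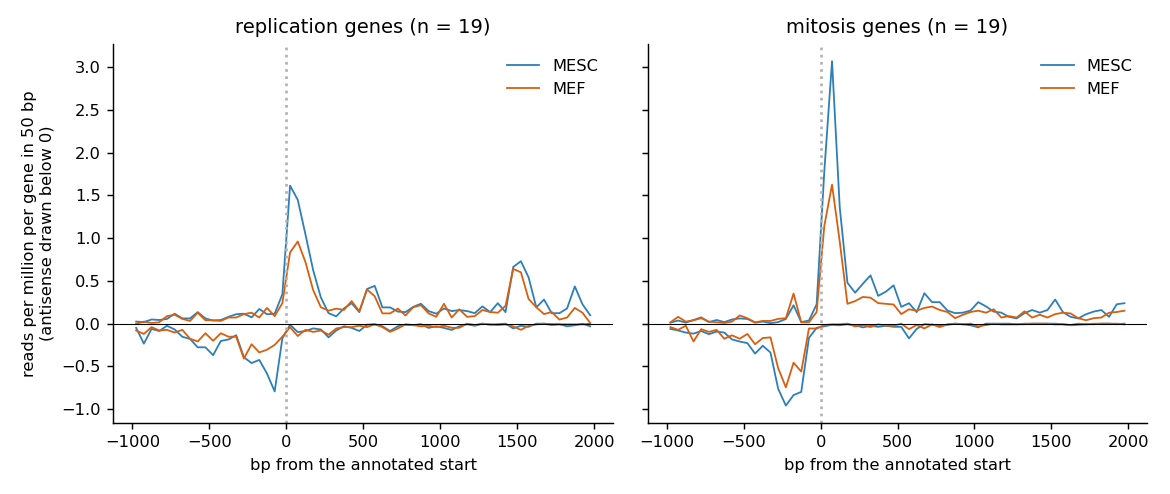
RPM per gene in bins of 50 bp from 1000 bp before to 2000 bp after the annotated start, sense above 0 and antisense below 0, for 19 mitosis and 19 replication genes in MESC and MEF. Genes with an annotated neighbour near the start are included. The sense peak of mitosis genes reaches 3.07 in MESC and 1.63 in MEF, and that of replication genes 1.61 and 0.961.

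The pausing index, promoter-proximal over body density, could be compared for 20 genes with at least 20 reads in both windows of both libraries. Its median was 10.3 in MESC and 10.4 in MEF, against 12.4 and 14.4 for the 2435 genes compared in all. It was higher in MEF in 13 of the 20, against 62.2% of all genes, and at least 2-fold higher in MEF in 5 and in MESC in none, against 13.3% and 4.93% of all. The read minimum left out genes close to it that went opposite ways. Rrm1, with 41 and 19 promoter reads, had a MEF over MESC index ratio of 0.396 (0.214 to 0.710). Mcm2, with 17 and 18, had a ratio of 4.38 (2.05 to 9.34). The promoter ratio of Rrm1 was 1.65-fold (0.939 to 3.02) toward MESC, while its body was denser in MEF. Mitosis genes (11) had medians of 10.0 and 10.4, and replication genes (9) 10.7 and 10.4. Pola1 had an index of 12.2 (7.45 to 18.97) in MESC and 40.1 (26.7 to 58.1) in MEF, a ratio of 3.28-fold (1.78 to 6.16). Chek1 had 17.6 (13.3 to 23.0) in MESC and 40.2 (28.1 to 57.4) in MEF, a ratio of 2.29-fold (1.45 to 3.60). Their start windows were not denser in MESC, with 20 and 29 promoter reads for Pola1 in MESC and MEF, a ratio of 0.529-fold (0.284 to 0.967), and 75 and 60 for Chek1, a ratio of 0.958-fold (0.673 to 1.37), while both bodies were. Bub1 had 10.0 (7.22 to 13.6) in MESC and 26.8 (17.1 to 40.7) in MEF, a ratio of 2.67-fold (1.54 to 4.57), and Aurka had 10.8 (8.73 to 13.2) in MESC and 26.2 (19.1 to 35.8) in MEF, a ratio of 2.43-fold (1.66 to 3.55). Their promoter ratios were 1.18-fold (0.726 to 1.93) and 1.30-fold (0.958 to 1.76), each under the ratio of its body. Ccnb2 had 5.81 (3.97 to 8.29) in MESC and 12.7 (7.73 to 20.3) in MEF, a ratio of 2.19-fold (1.17 to 4.03). Top2a differed little, with 10.5 (8.94 to 12.3) in MESC and 10.4 (7.85 to 13.6) in MEF, as did Gmnn, with 10.7 (8.03 to 14.2) in MESC and 10.4 (6.28 to 16.8) in MEF. Pola1, Chek1 and Ccnb2 are among the genes with sense reads before the start, and these differences were not tested against replicates.

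The index depends on where the start is placed. For Mcm7 the main start gave 0.666 in MESC and 1.27 in MEF, while the start 1405 bp downstream, with 299 and 181 reads, gave 16.3 and 36.6. Ccne2, with too few reads at its main start, had 53 and 47 reads at a start 376 bp downstream, and there an index of 10.8 and 17.97. E2f1 and Rrm2 likewise had their most-read annotated starts 475 and 788 bp downstream. Without Mcm7 the medians of the other 19 genes were 10.5 in MESC and 10.4 in MEF.

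**Figure D4:**
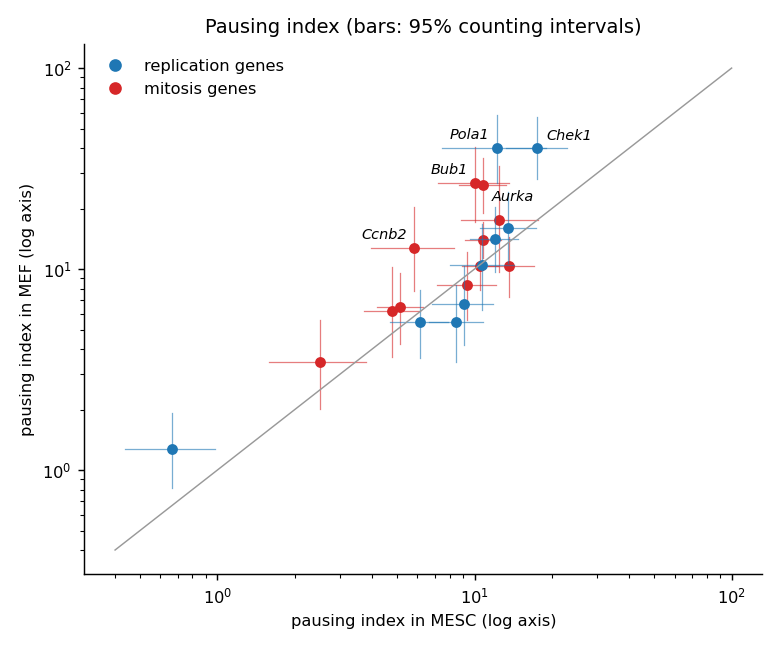
Pausing index in MEF against that in MESC on log axes for the 20 genes that could be compared, with 95% counting intervals as bars and the diagonal of equal indices. The 5 named genes lie at least 2-fold above the diagonal, and the lowest point is Mcm7 at its main annotated start.

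Divergent transcription was read as the share of opposite-strand reads in the 500 bp before the start among these and the sense promoter reads. Over the 24 measured genes with no other annotated start within 2000 bp, the median share was 30.3% in MESC and 25.8% in MEF, against 25.4% and 19.6% over all genes. Mitosis genes (15) had medians of 31.8% and 28.6% and replication genes (9) 21.2% and 24.0%. The range within each group was wide. Cdc20 had 163 reads or 63.2% (57.0 to 69.1) in MESC and 85 reads or 75.9% (66.9 to 83.5) in MEF. Chek1 had 182 reads or 70.8% (64.8 to 76.3) in MESC and 46 reads or 43.4% (33.8 to 53.4) in MEF. At the other end stood Cdk1, with 7 reads or 3.52% (1.43 to 7.11) in MESC and 0 reads or 0% (0 to 2.93) in MEF, and Top2a, with 8 reads or 4.32% (1.89 to 8.34) in MESC and 5 reads or 7.58% (2.51 to 16.8) in MEF, the mitosis genes with the most sense reads at the start over both libraries. Cdc25a had 0 reads or 0% (0 to 5.21) in MESC and 1 reads or 3.12% (0.0791 to 16.2) in MEF. Ccnb2 had 26 reads or 41.9% (29.5 to 55.2) in MESC and 2 reads or 7.41% (0.910 to 24.3) in MEF, and the intervals do not overlap. Genes that share their start region with an annotated neighbour were kept apart: Aurka with Cstf1, Plk1 with Gm15489, Mcm4 with Prkdc, Mcm7 with Ap4m1, Pcna with AV099323 and Rpa1 with Smyd4. For Plk1 the opposite strand held 145 and 63 reads, 89.5% and 90.0%, which cannot be told apart from transcription of that neighbour.

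Along the body, the last of 3 equal parts had a lower density than the first in 18 of 38 genes in MESC and in 13 of the 30 with at least 20 reads in both parts in MEF, against 53.6% and 58.2% of all genes. It was lower in 6 of 19 mitosis genes and 12 of 19 replication genes in MESC, and in 4 of 14 and 9 of 16 in MEF. The ratio of last to first part was 2.29 (1.59 to 3.35) in MESC and 2.62 (1.12 to 6.85) in MEF for Cdc20, and 2.06 (1.57 to 2.73) in MESC and 2.19 (1.47 to 3.32) in MEF for Cdc6. Mcm7 was the reverse, at 0.199 (0.158 to 0.248) in MESC and 0.0929 (0.0591 to 0.140) in MEF, with its downstream start in the first part. Ccnb1 stood at 0.744 (0.585 to 0.943) in MESC and 0.396 (0.220 to 0.686) in MEF.

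Polymerase continued past the annotated ends. In the 5000 bp after them, for the 32 genes with no gene of the same strand there, the density stood to the body at a median of 1.42 in MESC and 1.39 in MEF, and above 1 in 22 and 25 of the 32. No such value over all genes is given, so these counts do not set the 32 genes apart from others. Mad2l1 had 2.71 in MESC and 3.23 in MEF, and Plk1 2.70 in MESC and 4.98 in MEF. Bub1 was the lowest at 0.291 in MESC and 0.0626 in MEF, and Tyms was also low in both, at 0.424 in MESC and 0.446 in MEF.

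Other genes of these pathways, from lists chosen with earlier results known, are set against the 20.5% of all bodies past 2-fold toward MESC and the 12.6% toward MEF. Of 42 other replication genes measured, 15 were at least 2-fold higher in MESC, with a median log2 ratio of 0.88, and of 43 other mitosis genes 26 were, with a median of 1.19. By the largest ratios, Mcm10, which helps start the helicase, had 540 and 113 body reads and a ratio of 3.66-fold (2.99 to 4.53), and the clamp loader subunits Rfc5 and Rfc4 had 3.40-fold (2.70 to 4.32) and 3.13-fold (2.33 to 4.28). Pttg1, the securin that guards sister chromatids, had 95 and 17 reads and a ratio of 4.28-fold (2.54 to 7.66), but met the read minimum through MESC alone. Cenpa, the histone of centromeres, had 3.56-fold (2.67 to 4.81), and Mybl2, the B-Myb factor, had 3.51-fold (2.96 to 4.18). Among 23 G1 cyclins, kinases and RB-E2F regulators, 4 passed 2-fold toward MESC and 1 toward MEF, shares not above those of all bodies, with a median log2 ratio of 0.47. The 1 was Ccnd2, cyclin D2, with 144 and 690 reads, 6.25-fold (5.22 to 7.53) higher in MEF, while Tfdp2, a partner of E2F factors, was 2.75-fold (2.37 to 3.19) higher in MESC and Lin52, of the DREAM complex, 2.64-fold (2.28 to 3.06). Of 7 inhibitors of cyclin-dependent kinases, 3 had enough reads and none passed 2-fold. Cdkn1a (p21) had 710 and 282 reads and was 1.93-fold (1.68 to 2.22) higher in MESC, and Cdkn1b (p27) had 71 and 69 and was 1.27-fold (0.897 to 1.79) higher in MEF. Cdkn2a had 96 and 43 and was 1.71-fold (1.18 to 2.51) higher in MESC, but met the read minimum through MESC alone.

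**Figure D5:**
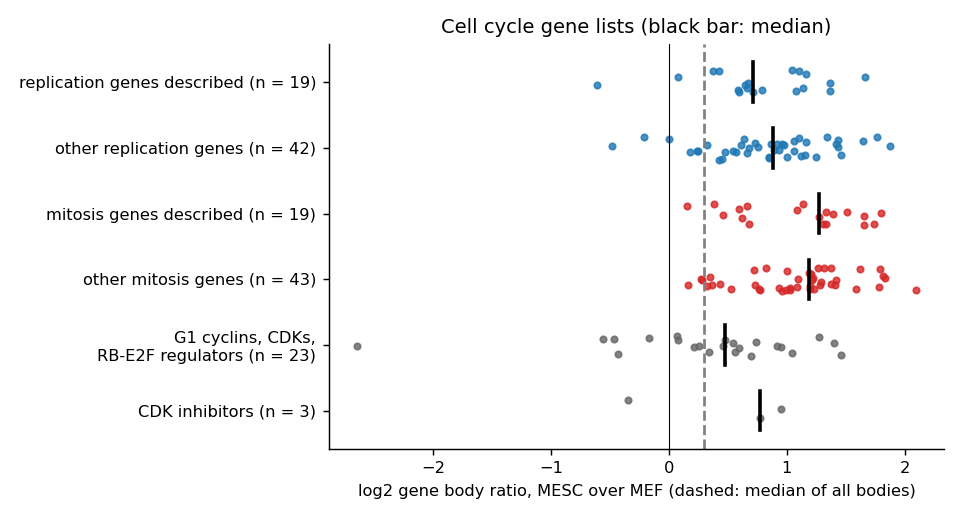
Log2 gene body ratio, MESC over MEF, of each measured gene in 6 cell cycle lists, with the list's median as a black bar and the median of all bodies, 0.30, as a dashed line. The mitosis medians, 1.27 and 1.19, lie furthest right, and the single point far to the left is Ccnd2.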

How the data were processed

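GRO-seq reads of MESC and MEF nuclei were used as the authors deposited them, 1 line per aligned read with position, strand, sequence and a read count of 1 in each line. Per the series' design text, alignment was with Eland to mm9, and reads in rRNA-like repeats were removed. The Eland version, like the handling of repeated matches and duplicates, is not given in the sources used here. All reads of 1 cell type are pooled, so no replicate test could be made.

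Reads were counted by 5′ end and strand. Positions were checked against the genome, where 93.0% (MESC) and 95.53% (MEF) of sampled reads matched with at most 2 mismatches. From 33924 GENCODE M1 genes, the longest transcript of each gene of at least 2000 bp was used. Models overlapping, by any length, another gene of their strand that is itself at least 500 bp long were left out. Shorter genes were masked, which kept 20918. Bodies needed 50 reads and promoters 20 in 1 library. Ratios are of densities scaled to the non-mitochondrial reads (RPKM), with exact Clopper-Pearson 95% intervals, and 3 reads stood in for lower counts. A difference was called at 2-fold. TMM factors were computed with edgeR 4.0.16. The rest used Python 3.11.15 with numpy 2.4.6, pandas 2.3.3, scipy 1.17.1 and matplotlib 3.10.9. The interval code was tested on simulated data.

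All member genes could be named, and of each other list the 3 with the largest ratios. Promoter sequences were those of the 3 genes per group with the most start reads. The genes, lists and motifs were chosen with earlier results of these data known. Alternatives covered scaling, duplicates, depth, read length, windows, read minimums, start placement and gene assignment. Those on introns, overlaps, Cdt1, upstream sense reads and joint start placement were chosen after seeing the data.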

Additional observations from a re-analysis of the deposited data

How the results depend on the processing

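Over 20 alternative settings, 3 of the medians and differences that answer a comparison turned their sign and 10 such values or counts moved beyond their tolerance, while 327 did not. The 327 include values that the setting could not change. Of 732 body log2 ratios of single genes 7 had another sign than as reported, in Ccna2, Mki67 and Rrm2, and of 540 promoter log2 ratios 15 had, in Bub1, Ccna2, Ccnb2, Cdk1, Chek1 and Mcm7. Scaling mattered most for replication genes: bodies past 2-fold in MESC numbered 3 with TMM factors and 3 with median ratios against 8 of 19, where 15.2% and 14.8% of all bodies passed, and promoters 1 and 1 against 6 of 12, where 15.4% and 14.6% of all promoters passed. Replication promoters past 2-fold numbered 0 with each position counted once, 3 with MESC reads of 35 bases alone and 3 in the window from 250 bp before to 500 bp after the start. Under these settings 11.9%, 14.4% and 19.7% of all promoters passed, against 21.1% in the main counts. The number of measured promoters over all genes moved too, from 4670 to 3699, 3317 and 6205. Mitosis promoters past 2-fold numbered 3 with each position counted once, against 6, where the share of all promoters was again 11.9% against 21.1%. Mitosis bodies past 2-fold ranged from 9 to 12. The promoter difference of -0.084 between mitosis and replication medians became 0.049 with MESC thinned to the MEF depth, 0.35 in the wider window and 0.087 with Ccna2 placed among replication genes. The wider window also gave median pausing indices of 4.90 in MESC and 5.07 in MEF. Ccna2 had a body log2 ratio of -0.0015 over introns alone. With the 35-base MESC reads alone, 50.3% of all 2-fold body calls were higher in MESC. The cause of these moves was not tested. No paired analysis was possible because the reads of each cell type are pooled, and for the same reason no sample could be left out in turn. The precision of single genes is set by their read counts, which in MEF fell to 21 for the body of Mad2l1.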
